A study of Mus musculus with 14 samples.

Results

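The genes studied here are the expressed protein-coding genes nearest the distal ends of the mouse autosomes. A gene was taken as distal when its start lay at most 2 Mb below the largest gene end annotated on its chromosome (GENCODE annotation, GRCm38) and when it reached at least 1 CPM, a read count scaled by library size, in at least 2 libraries. Of 516 such annotated genes 512 were in the table, and 306 passed the expression filter. Another 124 were above 0 but under the filter, and 82 were at 0 in every library. The 306 distal genes were compared with the 12387 remaining expressed protein-coding genes of the autosomes, out of 16157 genes tested in all.

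The cells were tMEF cells, transformed mouse embryonic fibroblasts, in which naked mole rat TRF1 or a mutant form of it took the place of the mouse protein. The GLAD mutant carries Glu69Lys, Val70Ala and Ala75Thr, the TIN mutant carries Ala105Thr, and the double mutant carries all of these. Each mutant was grown at 1% oxygen (hypoxia) and at atmospheric oxygen (normoxia), and cells with wild-type naked mole rat TRF1, called WT below, at normoxia. Each of the 7 groups had 2 bulk RNA-seq libraries, A and B, which gives 14 libraries. The labels do not say that A and B came from separate cultures, so every p-value rests on a spread between libraries that may be technical only. Where a mutant is a single cell line, the line and the substitution cannot be told apart. In the deposited table the WT columns carry the word mouse and another naming scheme, although their titles give naked mole rat TRF1. Any batch of the WT libraries cannot be told apart from genotype.

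Telomeres are the repeat arrays that cap chromosomes, and TRF1 (gene Terf1) is a subunit of shelterin, the protein complex that binds them and helps replication forks pass through them. In yeast and in engineered human cells, genes placed beside a telomere can be silenced, which is called the telomere position effect. Mouse autosomes have their centromere beside one end, where coordinates start, so that the largest gene end lies toward the distal telomere.

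Values per gene and library are CPM divided by the library's TMM factor, a scaling factor of 0.965 to 1.04 here. In every library low deposited values were whole multiples of a step of about 0.05 CPM, but 1 in 1.33 to 1.68 of these multiples occurred, and taking each that occurred as 1 more read put the depth at an estimated 11906518 to 15008078 reads per library. On that estimate a count of 0 allowed up to 0.1999 to 0.252 CPM (3 reads, counting error only). Terf1, which is not a distal gene, had 87.0 to 114 CPM in the 6 hypoxia libraries, 128 to 186 CPM in the mutants in normoxia, and 105 and 87.4 CPM in WT. Counts per gene do not separate mouse Terf1 from the naked mole rat sequence, and the replacement is not checked by them. Of 13 fibroblast markers 11 stood at 1 CPM or more in every library, with sums of 8495 to 18036 CPM. Sums were 0.513 to 4.35 CPM for 7 epithelial, 1.10 to 6.22 CPM for 5 muscle and 2.35 to 16.5 CPM for 5 endothelial markers. They were higher for 4 adipocyte (12.4 to 59.4 CPM), 6 myeloid (24.0 to 69.7 CPM) and 5 neural markers (143 to 398 CPM). Of these, 1 adipocyte, 2 myeloid and 2 neural markers stood at 1 CPM or more in every library. Libraries A and B differed more in WT (SD of the log2 difference 0.268 over 5517 genes with at least 50 CPM) than in the mutant groups (0.0730 to 0.146). The fit used 1 spread shared by all 7 groups, so SE and p-values of the comparisons with WT below may be too small. When 1 library was left out, the log2 difference of TIN from WT ranged from 5.13 to 5.82 for Igfbp6. For Isg15 it ranged from -4.78 to -4.47.

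Because several results turn on distal genes of the hypoxia and interferon responses, the promoters of Slc16a3, P4hb and Isg15 are shown, from 250 bases before to 50 bases after the start (RefSeq, GRCm38.p6, 5′ to 3′ on the gene's strand). Capitals mark the core of the hypoxia response element (ACGTG or GCGTG, on either strand) in Slc16a3 and P4hb and the interferon-stimulated response element (GAAA followed after 2 bases of any kind by GAAA, on either strand) in Isg15. The promoter window of Slc16a3 lies at chr11:120948817-120949116 on the plus strand, that of P4hb at chr11:120573204-120573503 on the minus strand and that of Isg15 at chr4:156200769-156201068 on the minus strand. The Slc16a3 window belongs to a RefSeq start that lies inside the gene as GENCODE annotates it, not at the first base of that annotation.
Slc16a3: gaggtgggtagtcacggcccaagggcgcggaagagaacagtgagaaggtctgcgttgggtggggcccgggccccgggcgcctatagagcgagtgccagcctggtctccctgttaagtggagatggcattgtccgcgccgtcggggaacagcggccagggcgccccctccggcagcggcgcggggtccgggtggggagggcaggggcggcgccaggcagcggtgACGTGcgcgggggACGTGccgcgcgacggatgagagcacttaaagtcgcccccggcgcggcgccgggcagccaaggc
P4hb: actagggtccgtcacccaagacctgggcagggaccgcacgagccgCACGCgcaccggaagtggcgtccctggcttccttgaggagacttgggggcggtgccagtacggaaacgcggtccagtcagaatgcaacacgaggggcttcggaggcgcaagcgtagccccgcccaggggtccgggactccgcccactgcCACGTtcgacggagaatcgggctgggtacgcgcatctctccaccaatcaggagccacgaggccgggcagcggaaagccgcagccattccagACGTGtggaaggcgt
Isg15: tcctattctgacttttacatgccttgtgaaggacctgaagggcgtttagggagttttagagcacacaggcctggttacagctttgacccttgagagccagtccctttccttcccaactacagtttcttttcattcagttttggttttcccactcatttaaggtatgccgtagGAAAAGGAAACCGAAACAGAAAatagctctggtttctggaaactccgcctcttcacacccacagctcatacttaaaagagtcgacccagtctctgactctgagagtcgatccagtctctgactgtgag
The hypoxia core was matched 2 times in Slc16a3 and 3 times in P4hb, and the interferon element 3 times in Isg15, in overlapping matches. For some distal genes, Vwa1 and Mx1 among them, no promoter was found in the source used here, so theirs were not examined. RefSeq promoters were found for 250 of the 306 distal genes, 317 promoters in all. At least 1 hypoxia core stood in 62.8% of these, against 43.8% of all 32851 promoters of the same length, and the interferon element in 5.05% against 3.44%. The telomere repeat unit TTAGGG, on either strand, stood in 9.46% of distal promoters, against 10.6% of all. Distal promoters had a median GC content of 62.0%, against 52.7% over all promoters, and a median of 21 CpG sites, against 7. All promoters were those of 27025 genes, not filtered by expression, gene type or chromosome. In these promoter comparisons, distal position and the filter on the distal genes therefore cannot be told apart. A match is a description of letters, not of a bound site.

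The distal genes were unevenly spread over the chromosomes. Chromosome 11 held 53, chromosome 4 held 47, chromosome 2 held 37 and chromosome 15 held 34, while chromosomes 12 and 17 held 2 and 1, and 13 autosomes held at least 5. They were shorter and a little richer in GC than the remaining genes. The median gene span was 17.6 kb for distal genes and 24.2 kb for the remaining genes, the longest transcript 3163 and 3413 bases, and transcript GC content 51.9% and 50.1%. Expression per kb of exonic length had a median of 9.69 CPM in distal genes and 7.80 CPM in the remaining genes. Of the 306 distal genes, 71 overlap another protein-coding gene, and the strand setting of the counting is not given in the sources used here, so that reads in such overlaps cannot be assigned. Among the genes described by name, Ccnd1 overlaps LTO1, Noc2l overlaps Samd11, Notum overlaps its antisense gene Notumos, and Vwa1, Fgf10, Brca2, Hmgcs1, Tnfrsf22, Wls, Bicd1, Ppp2r3d and Itgbl1 overlap other annotated genes, so their values are uncertain to that extent. At the 2 Mb border, Ankrd13c lay just inside at 1.99 Mb and Pdzd8 just outside at 2.01 Mb.

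Hypoxia changed most distal genes, in a share close to that of the remaining genes. In bulk RNA, fewer cells of a type and less RNA per cell cannot be told apart. Averaged over the 3 mutants, 95 distal genes rose and 122 fell at an adjusted p under 0.05 (limma), which is 70.9% of them, against 71.1% of the remaining genes. Of all genes tested 67.5% were called, 30.6% higher and 37% lower. The fold was at least 2 for 15 distal genes that rose and 6 that fell, 6.86% of them, against 6.86% of all tested genes. By mutant, 72 rose and 88 fell in GLAD (all tested genes 48.1% called, 22.1% higher and 26% lower), 85 rose and 75 fell in TIN (53.9%, 25.6% and 28.3%), and 75 rose and 112 fell in the double mutant (56.1%, 25.8% and 30.2%). The same direction was called in all 3 mutants for 35 distal genes that rose (11.4%) and 37 that fell (12.1%), against 10.6% and 12.5% of the remaining genes. Another 24 distal genes (7.84%) were called in opposite directions in different mutants, against 9.31%. The difference of the hypoxia response itself was called for 30.4% of distal genes between TIN and GLAD (all tested 33.9%), for 20.3% between the double mutant and GLAD (14.6%) and for 44.1% between the double mutant and TIN (42.8%). Of the remaining genes 36.7%, 16.3% and 46.2% were called for the same pairs.

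Relative to its own chromosome, the median distal gene lay within 0.04 (log2) of 0 in hypoxia. To set the distal genes against their own chromosome, the median log2 difference of the chromosome's remaining genes was taken from each distal gene's difference, and the median of the result over the 306 genes is called the distal shift. Its value for hypoxia was -0.04 on average over the mutants, 0.00 in GLAD, 0.03 in TIN and -0.04 in the double mutant. The spread of the shift between libraries of a group had an SD of 0.0216, pooled over the 7 groups. By group this SD ran from 0.0038 in TIN normoxia to 0.0468 in double-mutant hypoxia. The interquartile range of single genes reached from -0.23 to 0.32 for distal genes and from -0.28 to 0.30 for the remaining genes in the average.

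**Figure D1:**
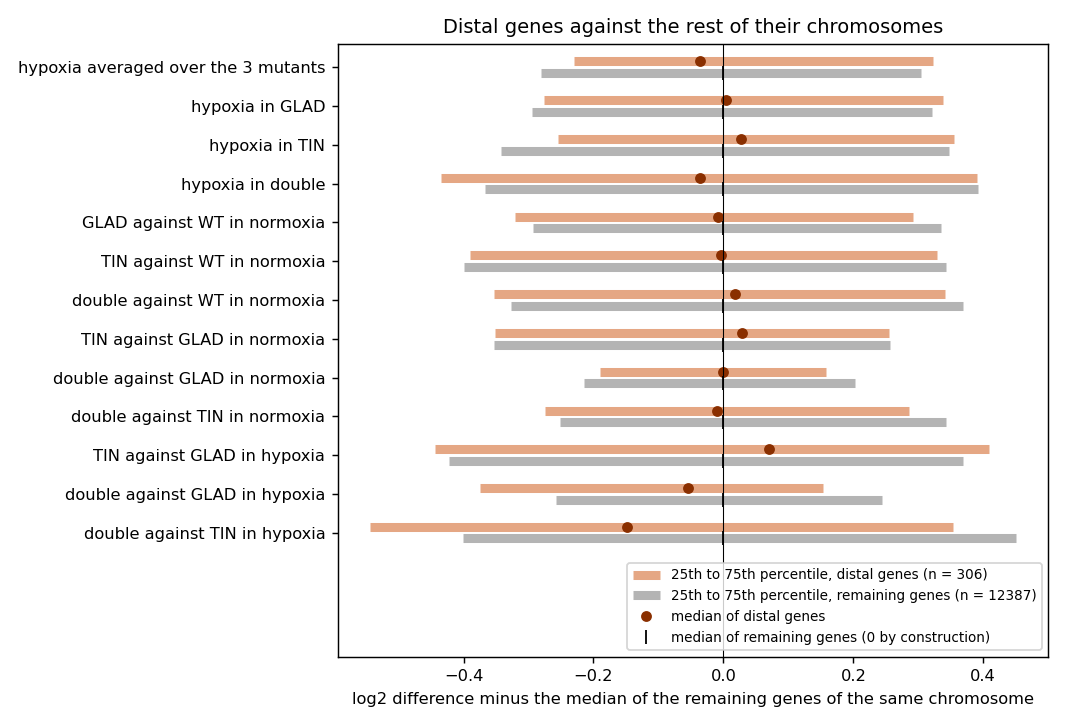
Log2 difference of each gene minus the median of the remaining genes of its chromosome (x axis) in 13 comparisons (y axis). Orange bars span the 25th to 75th percentile of the 306 distal genes and grey bars that of the 12387 remaining genes; points are the distal medians, which lie between -0.15 (double against TIN in hypoxia) and 0.07 (TIN against GLAD in hypoxia).

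Distance from the end gave small differences. In hypoxia, averaged over the mutants, the 144 genes in the last 1 Mb had a median of -0.07 relative to their chromosomes, the 162 genes at 1 to 2 Mb 0.01 and the 419 genes at 2 to 5 Mb 0.03. The last 1 Mb was lowest of the 7 distance classes in the double mutant (-0.08) and in GLAD (-0.04), but stood at 0.01 in TIN. In percent called, 69.4% of genes in the last 1 Mb and 71.3% of those over 50 Mb away were called in the average. At the opposite, centromeric end, 294 genes chosen by the mirrored rule had a shift of 0.01.

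**Figure D2:**
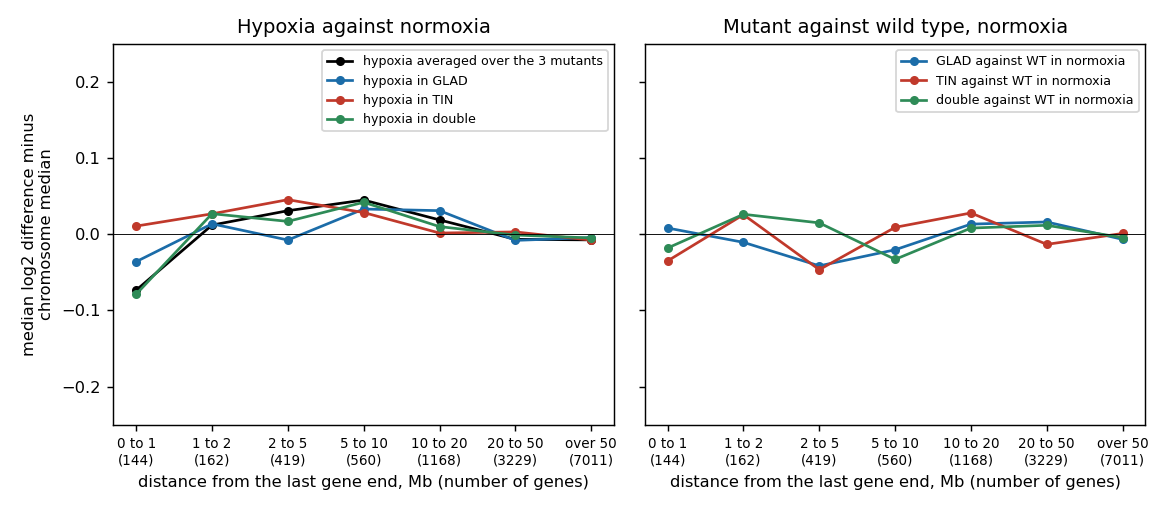
Median log2 difference relative to the chromosome median (y axis) by distance of the gene start from the last gene end in Mb (x axis, number of genes in brackets). Hypoxia against normoxia is on the left, with the last 1 Mb at -0.07 in the average, and the mutants against WT in normoxia are on the right, where the lines stay within 0.05 of 0.

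The distal genes that rose most in hypoxia, averaged over the mutants, were Vwa1, Mettl7b and Slc16a3. Slc16a3 encodes the lactate exporter MCT4 (ENSMUSG00000025161, GRCm38 chromosome 11, 120948480 to 120960868). It had 27.9 and 32.3 CPM in GLAD hypoxia libraries A and B, against 3.61 and 2.65 CPM in GLAD normoxia. It had 26.2 and 28.7 CPM in TIN hypoxia, against 1.80 and 1.74 CPM in TIN normoxia, and 119 and 96.8 CPM in double-mutant hypoxia, against 28.8 and 28.0 CPM in double-mutant normoxia. Every hypoxia library lay above the normoxia libraries of its mutant, and the double mutant in normoxia lay among the GLAD and TIN libraries in hypoxia. Slc16a3 rose by 3.08 ± 0.15 in GLAD (log2 difference ± SE, limma adjusted p = 8.8e-12), by 3.62 ± 0.15 in TIN (7.5e-13) and by 1.90 ± 0.15 in the double mutant (4.4e-09). The rise in the double mutant was smaller than that in TIN by a log2 difference of -1.72 ± 0.21 (adjusted p = 5.4e-06) and than that in GLAD by -1.19 ± 0.21 (7.9e-04).

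Vwa1, a von Willebrand factor A domain protein of the extracellular matrix (chromosome 4, 155768149 to 155774698), lay at a higher level in the double mutant as well. It had 74.2 and 76.1 CPM in GLAD hypoxia, against 4.62 and 5.44 CPM in GLAD normoxia, and 36.5 and 36.2 CPM in TIN hypoxia, against 2.80 and 2.63 CPM in TIN normoxia. In the double mutant it had 134 and 127 CPM in hypoxia, against 13.5 and 13.1 CPM in normoxia. The hypoxia and normoxia libraries did not overlap in any mutant. Averaged over the mutants Vwa1 rose by 3.51 ± 0.09 (adjusted p = 4.1e-16), and its rises in the 3 mutants lay between 3.25 and 3.78. No difference of the Vwa1 rise between mutants passed the test (adjusted p 0.13 to 0.40), and the double mutant minus GLAD was -0.53 ± 0.23.

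Mettl7b, a methyltransferase of the endoplasmic reticulum and lipid droplets, is the expressed gene nearest the end of chromosome 10 (128958274 to 128960988). It had 12.1 and 10.9 CPM in GLAD hypoxia, 9.69 and 11.0 CPM in TIN hypoxia and 31.5 and 38.0 CPM in double-mutant hypoxia. In normoxia it had 0.626 and 0.687 CPM in GLAD, 0.150 and 0.447 CPM in TIN and 3.13 and 4.70 CPM in the double mutant, so that GLAD and TIN in normoxia stood at a few reads. Mettl7b rose by 3.39 ± 0.13 on average (adjusted p = 1.2e-13). Over the alternative settings described below, among them other values added before the log, this rise ranged from 2.98 to 3.97. The rise in TIN ranged from 3.14 to 4.82. Mettl7b overlaps Itga7, the laminin-binding integrin alpha 7 subunit, which rose by 1.79 ± 0.05 (2.7e-15) with 109 and 121 CPM in GLAD hypoxia and 20.2 and 22.2 CPM in GLAD normoxia. Reads in the shared bases cannot be assigned to either gene.

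P4hb, protein disulfide isomerase and the beta subunit of collagen prolyl 4-hydroxylase (chromosome 11, 120560298 to 120573253), was the most abundant distal gene by mean CPM. It had 2088 and 2219 CPM in GLAD hypoxia, against 853 and 876 CPM in GLAD normoxia, and 1510 and 1454 CPM in TIN hypoxia, against 646 and 677 CPM in TIN normoxia. In the double mutant it had 2564 and 2350 CPM in hypoxia, against 844 and 865 CPM in normoxia. P4hb rose by 1.33 ± 0.04 on average (adjusted p = 7.5e-15). Slc16a3 and P4hb are the distal members of a list of HIF targets and glycolysis genes, of which 57 of 60 measured members rose and 0 fell in the average (all tested genes 30.6% and 37%), at a median of 1.96 against -0.04 over all tested genes. Nanos1, an RNA-binding translational regulator, rose by 1.55 ± 0.07 (4.6e-13).

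**Figure D3:**
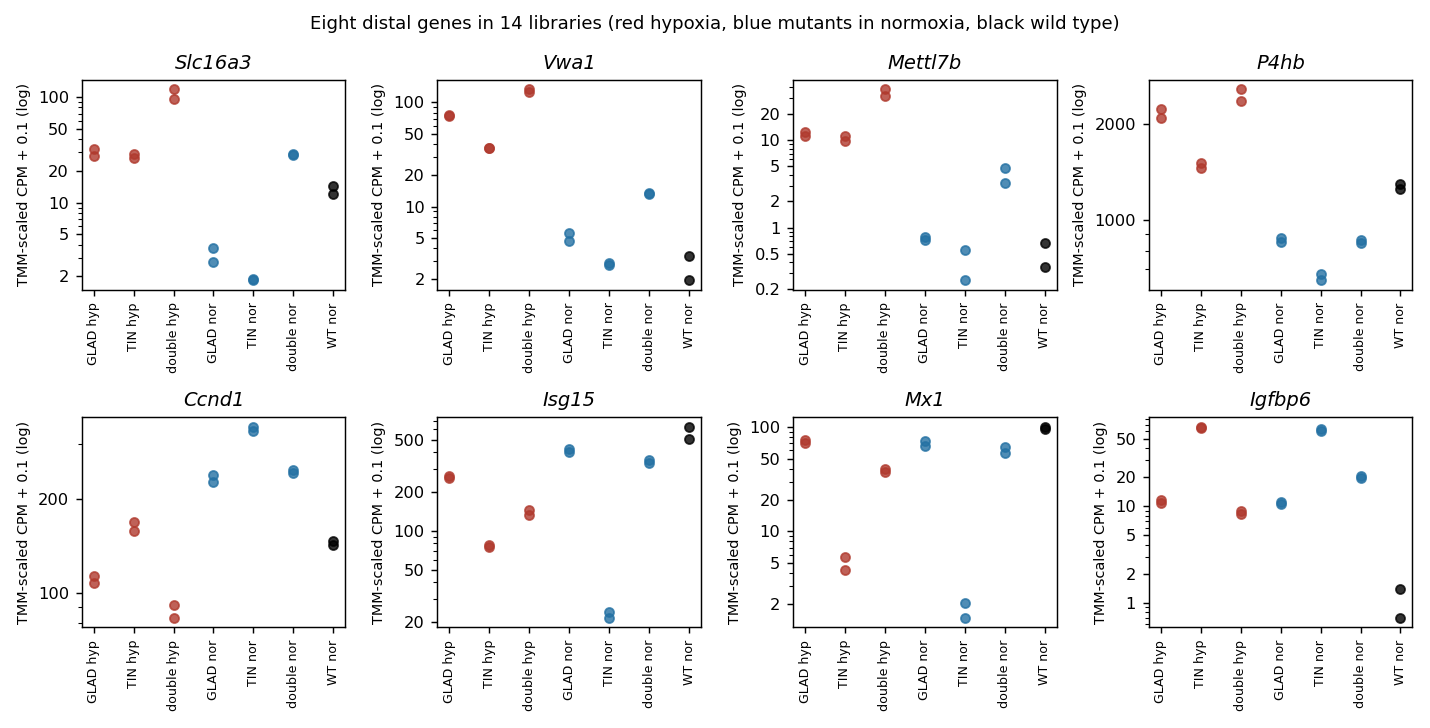
TMM-scaled CPM of 8 distal genes in each of the 14 libraries (y axis, log scale, 0.1 CPM added), with mutants in hypoxia in red, mutants in normoxia in blue and WT in black. Slc16a3, Vwa1, Mettl7b and P4hb are higher and Ccnd1 is lower in hypoxia in every mutant, Isg15 and Mx1 are lowest in TIN normoxia, and Igfbp6 is lowest in WT.

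Among the distal genes that fell in hypoxia was Ccnd1, cyclin D1, which drives entry into the cell cycle (chromosome 7, 144929931 to 144939925). It had 108 and 113 CPM in GLAD hypoxia, against 225 and 238 CPM in GLAD normoxia, and 157 and 168 CPM in TIN hypoxia, against 340 and 329 CPM in TIN normoxia. In the double mutant it had 91.1 and 83.2 CPM in hypoxia, against 241 and 247 CPM in normoxia. All 6 hypoxia libraries lay under all 6 normoxia libraries of the mutants, and WT in normoxia, at 146 and 143 CPM, lay within the range of the hypoxia libraries. Ccnd1 fell by 1.19 ± 0.04 on average (adjusted p = 2.0e-14), and the double mutant fell more than TIN (difference -0.44 ± 0.10, adjusted p = 1.9e-03). Ccnd1 was the distal member of a list of p53 targets, of which 16 of 26 rose and 3 fell in the average (all tested genes 30.6% and 37%). The mutants differed in this: in GLAD 8 rose and 9 fell (all tested genes 22.1% and 26%). In TIN 13 rose and 5 fell (25.6% and 28.3%), and in the double mutant 19 rose and 2 fell (25.8% and 30.2%).

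Mrgprf, an orphan receptor of the Mas-related family and the expressed gene nearest the end of chromosome 7, had the largest fall in the average. It had 22.9 and 24.8 CPM in GLAD hypoxia, 7.93 and 8.72 CPM in TIN hypoxia and 8.18 and 9.93 CPM in double-mutant hypoxia. In normoxia it had 43.6 and 44.7 CPM in GLAD, 19.3 and 14.2 CPM in TIN and 46.1 and 46.0 CPM in the double mutant. Each mutant was lower in hypoxia, and TIN was already lower than the other mutants in normoxia. Mrgprf fell by 1.37 ± 0.08 on average (adjusted p = 2.7e-11) and by 2.29 ± 0.13 in the double mutant, more than in GLAD by -1.42 ± 0.19 (7.5e-05). Notum, a secreted enzyme that inactivates Wnt proteins, fell by 1.25 ± 0.06 on average (5.1e-12), with differences of -1.76 ± 0.11 in the double mutant and -0.72 ± 0.11 in TIN. Tns2, a focal adhesion protein, fell by 1.66 ± 0.08 in the double mutant (1.2e-11) and by 0.79 ± 0.08 in GLAD (4.2e-07).

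Itgb8, Nrp1 and Fgf10 fell most in TIN. Itgb8, the integrin beta 8 subunit that activates latent TGF-beta and the expressed gene nearest the end of chromosome 12, had 1.56 and 2.02 CPM in TIN hypoxia, against 8.64 and 11.3 CPM in TIN normoxia. It had 8.86 and 6.89 CPM in GLAD hypoxia, against 11.9 and 12.2 CPM in GLAD normoxia. Itgb8 fell by 2.19 ± 0.18 in TIN (adjusted p = 1.3e-08) and by 0.59 ± 0.18 in GLAD (0.011), and the difference was -1.60 ± 0.25 (1.5e-04). Nrp1, a coreceptor for semaphorins and VEGF, had 32.6 and 34.4 CPM in TIN hypoxia, against 91.3 and 99.2 CPM in TIN normoxia, a fall by 1.49 ± 0.12 (1.1e-08). In the double mutant Nrp1 had 54.1 and 41.4 CPM in hypoxia, against 46.6 and 51.5 CPM in normoxia, where the groups overlapped (adjusted p = 0.73). Fgf10, a growth factor of mesenchymal cells, fell by 1.41 ± 0.11 in TIN (9.9e-09) and by 0.50 ± 0.11 in GLAD (1.2e-03). Cbr2, a carbonyl reductase, fell by 1.20 ± 0.10 in GLAD (2.6e-08) and by 1.27 ± 0.10 in the double mutant (6.8e-09) but rose by 0.31 ± 0.10 in TIN (0.014).

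The distal shift was not the same at every chromosome end. On chromosome 10, 3 of 19 distal genes rose and 12 fell in the average (tested genes called higher 30.6%, lower 37%), and the distal shift was -0.23. In the double mutant 2 rose and 13 fell (background 25.8% and 30.2%) and the shift was -0.46, against -0.25 in GLAD and 0.03 in TIN. No test of a chromosome was made. The 19 distal genes of chromosome 10 did not reach its last 1 Mb. Mettl7b, the nearest to the end, starts 1.63 Mb below the largest gene end, so all 19 start 1.63 to 2 Mb from it. The 2 Mb border falls between Rps26, inside at 1.97 Mb, and Erbb3, outside at 2.03 Mb. The chromosome 10 shifts therefore describe genes set back from the end, and a window of 1 Mb holds none of them. Of the remaining 652 genes of chromosome 10, 30.8% rose and 32.5% fell in the double mutant. The chromosome 10 genes that fell most in the double mutant were Tmem198b by 1.64 ± 0.09 (adjusted p = 4.3e-11), Mmp19, a matrix metalloproteinase, by 1.62 ± 0.08 (1.1e-11) and Suox, the sulfite oxidase, by 1.38 ± 0.12 (3.2e-08), which were named after their values were seen. Mmp19 had 67.0 and 74.7 CPM in double-mutant hypoxia, against 220.5 and 216 CPM in double-mutant normoxia. Tmem198b and Mmp19 overlap, so they are not independent counts, and Itga7 and Mettl7b, further toward the same end, rose. On chromosome 6, the shift was 0.31 in the average and 0.45 in the double mutant over 11 distal genes, of which 4 rose and 3 fell in the double mutant. Chromosome 13 had a shift of -0.35 in the double mutant over 14 genes, and chromosome 16 of 0.18 over 10.

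Against WT in normoxia, the mutants differed at many distal genes, and the lower level of chromosome 11 was found along its length. In GLAD 81 distal genes were higher and 114 lower, 63.7% of them against 57.6% of the remaining genes and 55.2% of all tested (26.9% higher and 28.3% lower). In TIN 89 were higher and 99 lower (all tested 60.2%, 31.4% and 28.8%), and in the double mutant 89 were higher and 104 lower (all tested 56.9%, 28.2% and 28.6%). Called were 61.4% of distal genes in TIN, against 63.4% of the remaining genes, and 63.1% against 59.6% in the double mutant. The distal shift was -0.01 in GLAD, -0.00 in TIN and 0.02 in the double mutant. The 3 comparisons use the same 2 WT libraries, so their likeness is no separate evidence. Distal genes together took 2.51% to 2.59% of all CPM in the mutant libraries and 2.73% and 2.78% in the WT libraries.

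Chromosome 11, which holds the most distal genes, was lower in the mutants at its end and along its length. Of its 53 distal genes 39 were lower and 5 higher in GLAD, 36 lower and 3 higher in TIN, and 29 lower and 6 higher in the double mutant, each against WT (all tested genes called lower 28.3%, 28.8% and 28.6%). Their median differences were -0.47, -0.41 and -0.31, and the medians of the 1025 remaining genes of chromosome 11 were -0.36, -0.36 and -0.31. Chromosome 11 was not alone in this. The medians of the remaining genes were -0.25, -0.26 and -0.19 on chromosome 15, and 0.34, 0.22 and 0.16 on chromosome 13. On chromosome 19 they were 0.18, 0.39 and 0.14. By library, the distal genes of chromosome 11 stood between -0.21 and 0.09 around their mean over the 14 libraries in the 12 mutant libraries, and at 0.25 and 0.49 in WT A and B. No mutant library reached either WT library, and the remaining genes of the chromosome stood between -0.10 and 0.02 in the mutants and at 0.26 and 0.36 in WT.

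Among chromosomes with at least 5 distal genes, chromosome 4 had the lowest shift against WT in GLAD and TIN and the next to lowest in the double mutant. The shift there was -0.23 in GLAD, -0.20 in TIN and -0.26 in the double mutant, where 20, 18 and 26 of 47 distal genes were lower and 8, 9 and 7 higher than in WT. Of all tested genes 28.3%, 28.8% and 28.6% were lower and 26.9%, 31.4% and 28.2% higher, and of the 788 remaining genes of chromosome 4 19.4%, 23.6% and 34.3% were lower. By library, chromosome 4 distal genes stood between -0.18 and 0.08 in the normoxia libraries of the mutants and at 0.02 and 0.28 in WT A and B, so that only WT B lay above all of them. Chromosomes 7 and 5 went the other way, with shifts of 0.28 and 0.31 in GLAD. Chromosome 7 had 0.34 and chromosome 6 had 0.40 in TIN, and chromosome 5 had 0.34 and chromosome 10 had 0.24 in the double mutant. The lowest shift in the double mutant was -0.41 on chromosome 16, over 10 genes.

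**Figure D4:**
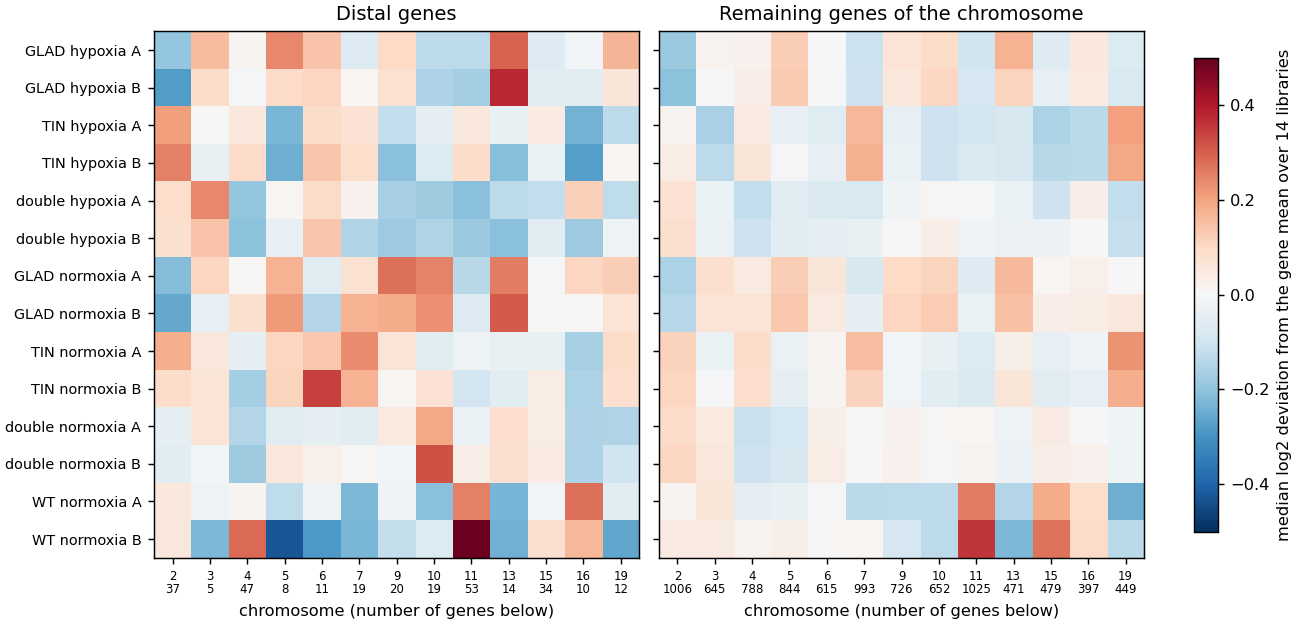
Median log2 deviation of genes from their own mean over 14 libraries (color) by library (rows) and chromosome (columns, number of genes below), for the 13 chromosomes with at least 5 distal genes. Distal genes are on the left and the remaining genes of the chromosome on the right; chromosome 11 is high in WT A and B in both panels, at 0.25 and 0.49 for distal genes.

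Single distal genes differed from WT by much more than any chromosome. Igfbp6, a secreted protein that binds insulin-like growth factor II (ENSMUSG00000023046, chromosome 15, 102144362 to 102149511), had 11.1 and 10.5 CPM in GLAD, 60.8 and 62.7 CPM in TIN, 19.4 and 20.6 CPM in the double mutant and 0.605 and 1.28 CPM in WT, all in normoxia. The WT libraries were the lowest of all, and TIN the highest. The differences from WT were 3.01 ± 0.16 in GLAD (adjusted p = 4.5e-11), 5.47 ± 0.16 in TIN (1.9e-15) and 3.87 ± 0.16 in the double mutant (7.0e-13). In hypoxia Igfbp6 had 66.7 and 64.8 CPM in TIN, 10.8 and 11.4 CPM in GLAD and 8.18 and 8.93 CPM in the double mutant, so TIN was highest at each oxygen level.

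Fgf10 and Itgb8 were also higher in all mutants than in WT. Fgf10 had 90.7 and 90.4 CPM in GLAD, 65.6 and 64.6 CPM in TIN, 92.9 and 95.9 CPM in the double mutant and 21.4 and 15.03 CPM in WT, with differences of 2.30 ± 0.11, 1.83 ± 0.11 and 2.36 ± 0.11 (adjusted p at most 8.5e-11). Itgb8 was higher than WT by 1.94 ± 0.18 in GLAD, 1.67 ± 0.18 in TIN and 1.85 ± 0.18 in the double mutant (adjusted p at most 2.1e-07), with 3.02 and 2.51 CPM in WT. Tnfrsf22, a mouse decoy receptor for TRAIL, was higher by 2.21 ± 0.11 in TIN (4.9e-12) and 1.82 ± 0.11 in the double mutant (1.7e-10). Hmga1b had differences of 2.73 ± 0.08 in TIN and 2.74 ± 0.08 in the double mutant, but it is a near copy of Hmga1 elsewhere in the genome, and its reads are uncertain.

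Pcyt2, the rate-limiting enzyme of phosphatidylethanolamine synthesis from ethanolamine, was lower in all mutants. It had 45.6 and 45.9 CPM in GLAD, 59.7 and 48.0 CPM in TIN, 44.7 and 39.6 CPM in the double mutant and 151 and 215 CPM in WT, with differences of -1.97 ± 0.13, -1.74 ± 0.13 and -2.09 ± 0.13 (adjusted p at most 1.9e-09). It lies on chromosome 11, where the remaining genes were lower by 0.31 to 0.36 in the median. Slc16a3, on the same chromosome, was lower than WT in GLAD by -1.91 ± 0.15 and in TIN by -2.58 ± 0.15 but higher in the double mutant by 1.09 ± 0.15 (5.3e-06), with 11.9 and 14.3 CPM in WT. Slco4a1, an organic anion transporter, was lower in GLAD by -1.58 ± 0.14 (5.2e-08) and higher in the double mutant by 1.09 ± 0.14 (4.1e-06). Hmgcs1, which makes the precursor of cholesterol synthesis, was lower in the double mutant by -1.30 ± 0.08 (1.4e-10), and C1qtnf12, a secreted adipokine, by -1.32 ± 0.21 (4.2e-05).

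A run of neighbouring genes near the end of chromosome 4 was very low in TIN. Isg15, an interferon-induced ubiquitin-like protein whose promoter is shown above (chromosome 4, 156199424 to 156200818), had 21.4 and 23.5 CPM in TIN normoxia, 424 and 405 CPM in GLAD normoxia, 329 and 349 CPM in double-mutant normoxia and 506 and 631 CPM in WT. The difference of TIN from WT was -4.62 ± 0.09 (adjusted p = 5.0e-18). Agrn, the heparan sulfate proteoglycan agrin, had 193 and 179 CPM in TIN normoxia and 1179.6 and 1005 CPM in WT, a difference of -2.55 ± 0.09 (1.0e-14). The next genes toward the end, AW011738 and Perm1, differed by -2.88 ± 0.12 (4.3e-13) and -3.33 ± 0.15 (9.9e-13), and Perm1, a regulator of energy metabolism genes in muscle, averaged 2.24 ± 0.50 CPM in TIN and 27.0 ± 2.85 CPM in WT (SD, n = 2 each).

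The genes on each side of the run did not share its size. Toward the centromere Rnf223 differed by -0.55 ± 0.26 (adjusted p = 0.073), and toward the telomere Plekhn1 by -0.77 ± 0.11 (5.9e-06), Noc2l by 0.44 ± 0.10 (1.2e-03) and Samd11, the last expressed gene, by 0.24 ± 0.16 (0.20). In GLAD and the double mutant the same 4 genes Agrn, Isg15, AW011738 and Perm1 differed from WT by -1.23 to -0.19. The same genes were lower in TIN than in GLAD in the separate hypoxia libraries, by -1.93 ± 0.09 for Agrn (1.9e-12), -1.75 ± 0.09 for Isg15 (2.1e-11), -1.84 ± 0.12 for AW011738 (7.2e-10) and -0.59 ± 0.15 for Perm1 (2.5e-03). The run was picked after its values were seen.

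**Figure D5:**
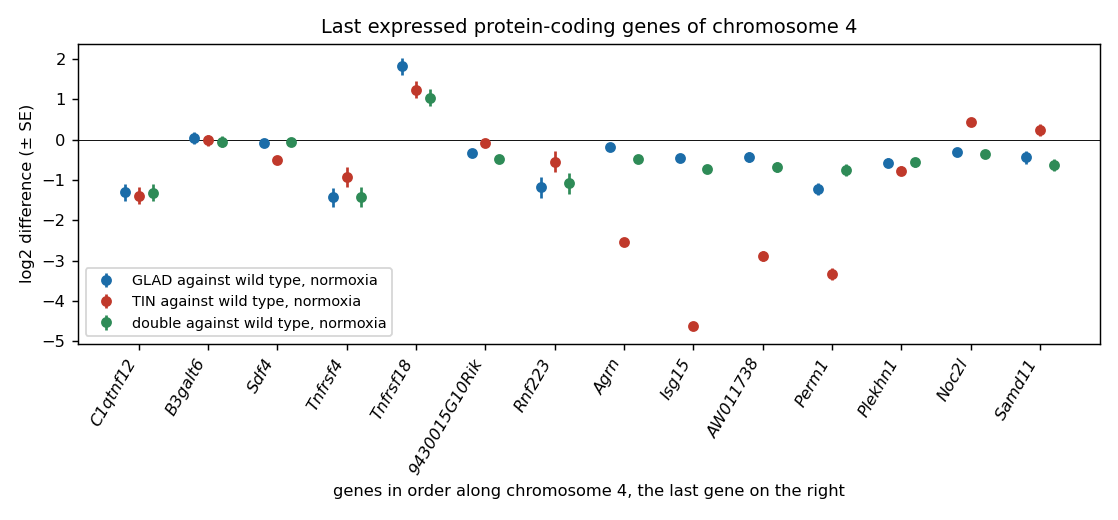
Log2 difference from WT in normoxia (y axis, points with SE bars from the limma fit, 2 libraries a group) for the last expressed protein-coding genes of chromosome 4 in chromosome order (x axis, last gene on the right). TIN lies at -2.55 to -4.62 at Agrn, Isg15, AW011738 and Perm1 and at 0.44 at Noc2l and 0.24 at Samd11.

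Interferon genes on other chromosomes were lower in TIN as well. Mx1, an interferon-induced antiviral GTPase near the end of chromosome 16, had 1.95 and 1.39 CPM in TIN normoxia, 73.3 and 65.5 CPM in GLAD normoxia, 64.6 and 56.6 CPM in double-mutant normoxia and 96.8 and 101 CPM in WT. The difference of TIN from WT was -5.53 ± 0.14 (adjusted p = 1.0e-16). All 41 genes of an interferon response list were lower in TIN than in WT in normoxia (all tested genes called lower 28.8%). Isg15 and Mx1 are the distal members of this list. Its median difference was -3.98, against 0.03 over all tested genes. Both distal members rose in hypoxia in TIN, Isg15 by 1.75 ± 0.09 (3.0e-11) and Mx1 by 1.30 ± 0.14 (3.0e-07), as 36 of the 41 genes did while 1 fell (all tested genes 25.6% and 28.3%). In the double mutant both fell in hypoxia, Isg15 by 1.29 ± 0.09 (1.3e-09) and Mx1 by 0.65 ± 0.14 (5.1e-04), and 33 of the 41 fell and 3 rose (all tested genes 30.2% and 25.8%). In GLAD Isg15 fell by 0.68 ± 0.09 (8.3e-06) and Mx1 had a difference of 0.07 ± 0.14 (0.69), while 20 of the 41 fell and 5 rose (26% and 22.1%).

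The mutants could be compared with one another in normoxia and, in separate libraries, in hypoxia. For TIN against GLAD 95 distal genes were higher and 76 lower in normoxia (all tested 51.8% called, 27.7% higher and 24.1% lower) and 101 higher and 87 lower in hypoxia (63.1%, 31.1% and 32%). Double against GLAD gave 55 higher and 40 lower in normoxia (35.7%, 18.5% and 17.2%) and 59 higher and 81 lower in hypoxia (42.6%, 21.6% and 21%). Double against TIN gave 73 higher and 85 lower in normoxia (48.7%, 22.9% and 25.8%) and 89 higher and 124 lower in hypoxia (64%, 32.1% and 31.9%). In normoxia, for these pairs in order, 55.9%, 31.0% and 51.6% of distal genes were called, against 56.0%, 39.7% and 52.5% of the remaining genes. In hypoxia the shares were 61.4%, 45.8% and 69.6%, against 65.4%, 46.0% and 66.3%. Of the 125 distal genes called at both oxygen levels between TIN and GLAD 93.6% kept their direction, against 91.0% of the remaining genes. The shares were 92.1% of 63 distal genes against 93.6% of the remaining genes for double against GLAD, and 81.3% of 123 against 85.1% for double against TIN.

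Differences of whole chromosomes between mutants were set against each other at both oxygen levels, as were the distal shifts. Over 19 autosomes the median differences of the remaining genes in normoxia and in hypoxia had Pearson correlations of 0.95 for TIN against GLAD, 0.99 for double against GLAD and 0.84 for double against TIN. For the distal shifts of the 13 chromosomes with at least 5 distal genes the values were 0.42, 0.72 and -0.33. These are descriptions over chromosomes of very different gene numbers, and the points of a pair share the 2 lines. On chromosome 2 the distal genes were higher in TIN than in GLAD by a median of 0.31 in normoxia and 0.36 in hypoxia, with 0.29 and 0.23 for the rest of the chromosome.

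With the 2 Mb window, the distal shift farthest from 0 was that between the double mutant and TIN in hypoxia, but its size depended on the window and on which genes were kept. It was -0.15 there, with 89 distal genes higher and 124 lower, and 40.5% of distal genes against 32.7% of the remaining genes were lower. By library the shift from the mean of each gene was -0.02 and -0.09 in double-mutant hypoxia A and B and 0.08 and 0.05 in TIN hypoxia A and B, against -0.03 to 0.03 in the other 10 libraries. The 294 genes of the centromeric ends had a shift of -0.11 in the same comparison. The difference also went with transcript length over all 12693 tested protein-coding autosomal genes (Spearman correlation 0.34) and with transcript GC content (-0.21), and once each library's trend on these was removed the shift was -0.13. It was -0.12 with a window of 1 Mb, where double against GLAD in hypoxia lay at -0.14, and -0.03 with a window of 5 Mb, where double against TIN in normoxia lay at 0.04. Without distal genes that overlap another protein-coding gene it was -0.09, and without a filter on low values -0.04. By chromosome it ran from -0.34 on chromosome 13 and -0.29 on chromosome 11 to 0.30 on chromosome 5 and 0.55 on chromosome 19.

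Several distal genes separated the mutants at each oxygen level. Clec3b, tetranectin, had 0.49993 to 3.03 CPM in the 8 libraries of TIN and the double mutant, against 16.1 and 18.4 CPM in GLAD hypoxia and 17.2 and 19.6 CPM in GLAD normoxia. TIN was lower than GLAD by -4.08 ± 0.21 in normoxia (adjusted p = 8.4e-12) and -2.50 ± 0.21 in hypoxia (1.1e-08), and the double mutant by -2.80 ± 0.21 and -2.88 ± 0.21. Over the alternative settings described below, the Clec3b difference of TIN from GLAD in normoxia ranged from -4.70 to -3.58. Slc16a3 was higher in the double mutant than in GLAD by 3.01 ± 0.15 in normoxia (2.9e-11) and 1.82 ± 0.15 in hypoxia (2.5e-08), and Mettl7b by 1.91 ± 0.23 (3.2e-06) and 1.55 ± 0.23 (3.2e-05). The cholesterol synthesis genes Hmgcs1 and Dhcr7 were lower in the double mutant than in TIN, Hmgcs1 by -1.21 ± 0.08 in normoxia (4.1e-10) and -1.67 ± 0.08 in hypoxia (6.1e-12) and Dhcr7 by -1.38 ± 0.14 (1.4e-07) and -1.54 ± 0.14 (2.7e-08).

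Distal genes with a role in telomere upkeep or replication were Rtel1, Rfc3 and Brca2. Rtel1, a helicase that unwinds telomere loops (chromosome 2, 181319739 to 181356616), had 94.8 and 87.6 CPM in GLAD hypoxia, 141 and 139 CPM in TIN hypoxia and 104 and 103 CPM in double-mutant hypoxia. In normoxia it had 84.3 and 79.7 CPM in GLAD, 140.1 and 120.3 CPM in TIN, 109.9 and 99.1 CPM in the double mutant and 102 and 110.2 CPM in WT. Its hypoxia difference was 0.08 ± 0.05 on average (adjusted p = 0.15), and TIN was higher than GLAD by 0.66 ± 0.08 in normoxia (3.2e-06) and 0.62 ± 0.08 in hypoxia (5.4e-06), on a chromosome whose remaining genes were higher by 0.29 and 0.23. Of 29 measured genes of a shelterin and telomere maintenance list, 10 rose and 12 fell in hypoxia on average, shares close to the 30.6% and 37% of all tested genes. Rfc3, a subunit of the clamp loader and the last expressed gene of chromosome 5, rose by 0.25 ± 0.05 (1.4e-04), and Brca2, a DNA repair gene, by 0.25 ± 0.05 (3.4e-04). Of 41 genes of the replication and recombination list 27 rose and 4 fell (all tested genes 30.6% and 37%), at a median of 0.29.

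Of the expressed genes nearest each of the 19 autosome ends, some rose and some fell in hypoxia. Rises on average were found for Mettl7b on chromosome 10, Pde1b, a phosphodiesterase, on chromosome 15 by 1.23 ± 0.14 (3.0e-07), Metrnl, a secreted protein, on chromosome 11 by 0.86 ± 0.06 (1.2e-09), Ppp2r3d on chromosome 9 by 0.32 ± 0.07 (7.3e-04) and Rfc3 on chromosome 5. Falls were found for Mrgprf and Itgb8 above, for the complement regulator Cr1l on chromosome 1 by 0.87 ± 0.07 (1.6e-09), for Itgbl1 on chromosome 14 by 0.85 ± 0.14 (2.1e-05), for Bicd1, a dynein adaptor, on chromosome 6 by 0.82 ± 0.11 (4.3e-06), for Mettl4 on chromosome 17 by 0.52 ± 0.11 (4.4e-04) and for Wls, which carries Wnt proteins to the surface, on chromosome 3 by 0.37 ± 0.05 (1.8e-06). The test was not passed by Polr3k on chromosome 2 (0.09 ± 0.06), Samd11 on chromosome 4 (0.06 ± 0.09), 2610044O15Rik8 on chromosome 8 (-0.08 ± 0.09), AF067061 on chromosome 13 (-0.17 ± 0.16), B230307C23Rik on chromosome 16 (-0.03 ± 0.14), Gm45871 on chromosome 18 (0.20 ± 0.11) and Csf2ra on chromosome 19 (-0.31 ± 0.18). AF067061, Itgbl1 and Csf2ra stood near 1 CPM, where counting error is large. Pde1b and B230307C23Rik were low as well and, like these, dropped out under a filter of 5 CPM. Over the remaining alternative settings the rise of Pde1b ran from 0.98 to 1.63. Wls had 235 and 215 CPM in GLAD hypoxia, against 226 and 211 CPM in GLAD normoxia, and 130.3 and 129.6 CPM in TIN hypoxia, against 196 and 212 CPM in TIN normoxia, so that its fall lay in TIN (-0.65 ± 0.08) and the double mutant (-0.52 ± 0.08).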

How the data were processed

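The deposited values are CPM per Ensembl gene for 52636 genes, which the authors computed from reads aligned with STAR and counted per gene with HTSeq, on GRCm38.p4 and mm10, per the submitters' processing notes. Versions, strand setting and annotation release are not given in the sources used here. GENCODE M21 positions on GRCm38 were found for 52403 genes. Deposited CPM were divided by TMM factors (30% of log ratios and 5% of levels trimmed), and values per gene and library in the text are these scaled CPM, while the expression filter, mean levels and shares of all CPM use deposited CPM. For tests, 0.5 CPM was added, and log2 values of the 16157 genes that reached 1 CPM in 2 or more libraries were fitted with limma 3.58.1 in R 4.3.3 as 7 group means, with variances moderated along the mean trend, 7 residual and 10.9 prior degrees of freedom. Benjamini-Hochberg adjustment ran over all tested genes within each of 16 comparisons, and a gene was called at an adjusted p under 0.05. Low values were multiples (to within 0.05) of a step shared by the libraries, not of 1 read of each library, so whole reads were not recovered, and the planned count test on such reads was not run. Precision is limited by 2 libraries a group.

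The distal genes and the gene lists were chosen with earlier results of these data known. Genes named are the distal gene nearest each end, the 3 largest rises and falls of each hypoxia and WT comparison with a mean level of 5 CPM or more, the most different between mutants at both oxygen levels, and members of 5 gene lists (HIF targets and glycolysis, interferon response, telomere maintenance, replication, p53 targets). The chromosomes named have the 2 highest or 2 lowest distal shifts among those with at least 5 distal genes, with chromosomes 2 and 11 added afterwards. Chromosomes 13, 15 and 19 were also added afterwards, for their remaining genes against WT. The fit and the shift were tested on simulated data, with independent noise of the same spread in every group. The simulation held neither the larger spread of WT nor the trends with length and GC, so it supports no result here.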

Additional observations from a re-analysis of the deposited data

Results flagged for a closer look

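For 11 distal genes named in the hypoxia comparisons, the hypoxia response differed between mutants by a limma test of the difference itself. They were named for large rises or falls, also within single mutants, a choice that favours differences between mutants, so their number is no result. The difference of the response, double mutant minus TIN, was -1.72 for Slc16a3, -1.04 for Notum, -0.44 for Ccnd1, -1.58 for Cbr2, 1.44 for Nrp1 and 0.70 for Nanos1 (log2). The response of the double mutant minus that of GLAD was -1.42 for Mrgprf and -0.88 for Tns2. The response of TIN minus that of GLAD was -1.60 for Itgb8, -0.91 for Fgf10 and 0.73 for Mrgpre. For each gene the pair of mutants with the largest called difference is given. Over all tested genes 33.9% were called for TIN minus GLAD, 14.6% for double minus GLAD and 42.8% for double minus TIN, and of the 306 distal genes 30.4%, 20.3% and 44.1%. Of the remaining genes 36.7%, 16.3% and 46.2% were called. At least 1 of these differences was called for 53.3% of distal genes, 57.8% of the remaining genes and 53.7% of all tested genes.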

How the results depend on the processing

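The alternatives were other scalings, pseudocounts and filters, windows of 1 and 5 Mb, another chromosome end, a fit to only the groups compared, removal of length and GC trends, the replicate block, leaving out each library and, chosen after seeing the data, leaving out distal genes that overlap another protein-coding gene. Single genes were followed only where named, in the comparisons they were named for, and none of these that was called changed direction. Of the distal shifts 189 values stayed within the spread between libraries and 40 moved past it, and of the percentages called 278 stayed within 1.5 times and 14 did not; the cause was not tested.

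With a 1 Mb window the shifts were -0.0745 for the average hypoxia effect, -0.0353 for hypoxia in GLAD, -0.0847 for hypoxia in the double mutant, -0.0409 for TIN and -0.0245 for the double mutant against WT, and, in normoxia, -0.0114 for TIN against GLAD, -0.0420 for double against GLAD and -0.0503 for double against TIN. In hypoxia they were -0.0599, -0.143 and -0.116 for the same pairs. With a 5 Mb window they were 0.0108 for the average hypoxia effect, -0.0316 for TIN against WT, -0.0164, 0.0209 and 0.0380 for the pairs in normoxia and 0.0364, 0.00535 and -0.0320 in hypoxia. Without overlapping genes they were -0.00795 for the average, 0.0349 for GLAD and -0.0116 for the double mutant in hypoxia, 0.0162 for GLAD against WT, and 0.0257 for TIN against GLAD and -0.0886 for double against TIN in hypoxia. Without a filter, which adds genes near 0, they were 0.00386 for the average, 0.00278 for TIN and 0 for the double mutant in hypoxia, 0.00303 for TIN against GLAD in normoxia, and 0.0232, -0.0174 and -0.0423 for the pairs in hypoxia. Without length and GC trends they were 0.0130 for TIN against GLAD and -0.125 for double against TIN in hypoxia.

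Without a filter the percentages called were 33.7 for hypoxia in GLAD, 42.3, 40.2 and 41.6 for GLAD, TIN and the double mutant against WT, 36.0, 19.3 and 34.0 for the pairs in normoxia, and 16.7, 11.2 and 29.3 for the hypoxia responses of TIN minus GLAD, double minus GLAD and double minus TIN. Fitting only the groups compared gave 48.7 for TIN minus GLAD.

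Leaving out 1 library gave 19.9% to 22.9% called for double against GLAD in normoxia (19.9% without GLAD normoxia A), and 13.1% to 21.2% for the response of double minus GLAD. The shifts ranged from -0.00332 to 0.0350 for hypoxia in TIN, from -0.152 to -0.122 for double against TIN and -0.0807 to -0.0475 for double against GLAD in hypoxia, from -0.0372 to -0.00134 for GLAD and from -0.0428 to 0.00915 for TIN against WT, the lowest of both without WT A. Mx1 lost its call in the average hypoxia effect without TIN hypoxia A (0.18, adjusted p = 0.052), and 8 values of uncalled genes passed the test under another setting.

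With the library letter as a replicate block, 71.2% of distal genes were called in the average hypoxia effect, 53.3% in GLAD and 53.9% in TIN. The letters do not pair the samples: deviations correlated by -0.10 to 0.16 over 21 pairs of groups, and 3 of these were over 0.1. The block reversed no call of the named genes. The count test on recovered reads was not run, since whole reads were not recovered. Depth limits genes near 0.1999 to 0.252 CPM, where 3 reads set the value.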
